A study of Homo sapiens with 4 samples.

Results

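The interferon receptor and its JAK-STAT pathway were described here through 9 genes, taken by gene symbol out of 26255 genes in the deposited tables: the receptor chains IFNAR1 and IFNAR2, the kinases JAK1, JAK2 and TYK2, the transcription factors STAT2, STAT3 and IRF9, and the inhibitor SOCS1. Messenger RNA was sequenced from MRC5 cells, human fibroblasts established as a line from fetal lung, labelled wild type (WT) and normal in all samples. The 2 miRs libraries came from cells labelled as treated with miRs, microRNAs that the labels do not name, and the 2 control libraries from cells whose treatment label is "no". All 4 titles give 48 h. The series title speaks of a negative-control microRNA, so whether the control cells received one is not known. All 9 genes were found, and all 9 reached a mean of 1 FPKM over the 4 libraries, the minimum for testing. FPKM counts fragments relative to transcript length and library size, so levels of different genes can be set side by side.

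Type I interferons bind a receptor of the chains IFNAR1 and IFNAR2, which carry the kinases TYK2 and JAK1. The kinases phosphorylate STAT proteins, and STAT2 joins IRF9 in ISGF3, the factor that binds the interferon-stimulated response element (ISRE) and switches on antiviral genes. SOCS1 is made in response to cytokines and shuts the pathway down by blocking the kinases. Fibroblasts carry this pathway and are a classical source and target of interferon beta.

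The 9 genes did not share a direction. STAT2, IRF9 and SOCS1 stood 2.43-fold, 2.75-fold and 2.84-fold higher in miRs than in control by mean FPKM. IFNAR1 and JAK1 stood 42.2% and 33.4% lower. TYK2, JAK2, IFNAR2 and STAT3 lay within 1.505-fold of control, as did JAK1, whose control mean was 1.501-fold its miRs mean. None of these differences passed the test over all genes. With limma on log2(FPKM + 1), 0 of the 9 genes had an adjusted p under 0.05, where 0.245% of the 11860 tested genes did (0.101% higher and 0.143% lower). At an unadjusted p under 0.05 there were 5 of the 9, with STAT2, IRF9 and SOCS1 higher and IFNAR1 and JAK1 lower, where 24.2% of all tested genes reached it. The groups did not overlap in 7 of the 9, where 59.5% of all tested genes had such groups, so that count says little about these genes. In 4 of the 7 the miRs pair was above the control pair (29.5% of tested genes) and in 3 it was below (30.0%). Each group has 2 libraries, which leaves 2 residual degrees of freedom. In the fits that left out 1 miRs library, 5 of the 9 were called, STAT2, IRF9, SOCS1 and JAK1 in both, IFNAR1 without miRs replicate 1 and JAK2 without miRs replicate 2. Such a fit takes the single library left to vary as the controls do, and it called 13.9% of all tested genes without miRs replicate 1 and 31.6% without miRs replicate 2.

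**Figure D1:**
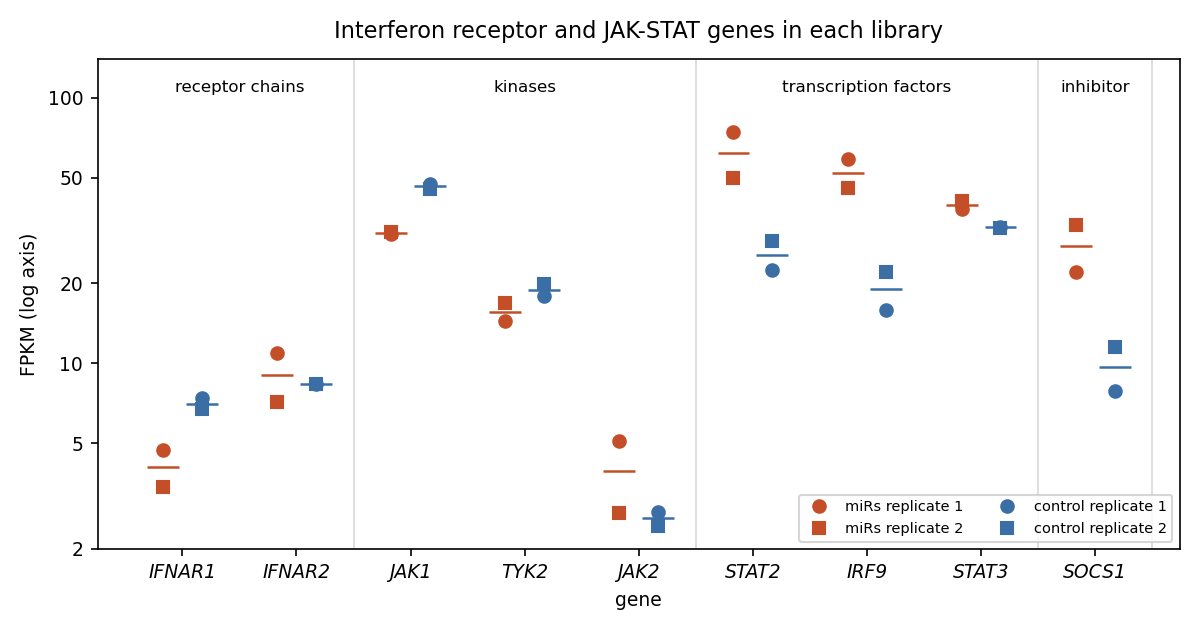
FPKM on a log axis of the 9 genes in each library, with miRs left of control, points for libraries (circles replicate 1, squares replicate 2) and short lines for the means of 2 libraries. STAT2, IRF9 and SOCS1 sit higher in miRs and IFNAR1 and JAK1 lower, with no overlap of the groups, while the miRs values of IFNAR2 and JAK2 overlap those of control.

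The 2 miRs libraries were less alike than the 2 controls. Among tested genes, 725 lay more than 1 log2 unit apart between the miRs libraries and 71 between the controls. The FPKM that a single fragment adds was set to 1 for control replicate 1. It was 0.892 for miRs replicate 1, 1.02 for miRs replicate 2 and 1.05 for control replicate 2. These values were searched only within set limits around 1, so their closeness says little, and the number of reads is unknown. Of 8 fibroblast markers all 8 were expressed, with summed FPKM of 6661 and 11489 in miRs and 9899 and 10015 in control. Most of that sum came from COL1A1, COL1A2 and VIM, and the list's median log2 difference was -0.68. In limma 0 of the 8 passed, and 4, DCN, THY1, LUM and VIM, had an unadjusted p under 0.05 and lay below both controls in both miRs libraries (30.0% of all tested genes). DCN was at 352 and 419 FPKM in miRs and 963 and 1223 FPKM in control (limma adjusted p = 0.0632), and THY1 at 188 and 175 FPKM in miRs and 406 and 335 FPKM in control (limma adjusted p = 0.0731). Of 7 blood cell markers, 3 were listed at 0 throughout and PTPRC reached at most 0.0182 FPKM, while CD68, at 41.9 to 130 FPKM, made up nearly all of their summed 130 and 42.1 FPKM in miRs and 53.8 and 57.7 FPKM in control. CD68 was the only 1 of the 7 to reach the minimum for testing. The summed level of 6 epithelial markers was 12.9 and 4.97 FPKM in miRs and 0.943 and 0.598 FPKM in control, mostly CLDN4. EPCAM, below the minimum for testing, was at 1.07 and 1.61 FPKM in miRs and 0 and 0.228 FPKM in control. CDH1 was listed at 0 in both miRs libraries and reached 0.0356 FPKM in control replicate 1. KRT5, SFTPC and SFTPB were listed at 0. The 4 endothelial markers summed to at most 0.0951 FPKM in any library. The part of the CLDN4, EPCAM, CD68 and fibroblast marker differences in the results below was not tested. In bulk RNA, fewer cells of a kind and less RNA per cell cannot be told apart. The labels do not say whether replicates were separate cultures, so the spread behind the p-values may be technical only.

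The receptor chains differed from each other. IFNAR1, the chain that carries TYK2, was at 4.72 and 3.42 FPKM in miRs replicates 1 and 2, against 7.37 and 6.71 FPKM in control replicates 1 and 2. Both miRs libraries lay below both controls. The means were 4.07 ± 0.923 FPKM in miRs and 7.04 ± 0.472 FPKM in control (SD, n = 2 each), a log2 difference of -0.68 ± 0.18 (SE) on the log2(FPKM + 1) scale (limma adjusted p = 0.134). IFNAR2, the main interferon-binding chain, which carries JAK1, was at 10.9 and 7.14 FPKM in miRs, against 8.32 and 8.35 FPKM in control. The miRs libraries lay on either side of the controls, and the log2 difference was 0.08, with a 95% interval of -0.50 to 0.66, or 0.706-fold to 1.58-fold on that scale. Without miRs replicate 1 its sign turned (-0.20). The ratio of IFNAR2 to IFNAR1 was 2.31 and 2.09 in miRs and 1.13 and 1.25 in control. Transcripts of the receptor's chains were thus close to equal in level in control and nearer to a 2-fold excess of IFNAR2 in both miRs libraries, a difference of 0.89 in the log2 ratio. With 2 libraries against 2 an exact 2-sided permutation test of such a ratio cannot give a p below 0.333.

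Of the other chains of the interferon receptors, none of the 3 tested of 4 listed passed in either direction, and their median log2 difference was -0.02, where that of all tested genes was 0.00. IFNGR1, the ligand-binding chain of the interferon gamma receptor, was at 18.8 and 13.45 FPKM in miRs and 13.36 and 11.1 FPKM in control, both miRs libraries above both controls. IFNGR2, its partner, was at 31.7 and 20.3 FPKM in miRs and 32.8 and 28.6 FPKM in control, and the groups overlapped. IL10RB, shared by the receptors of interferon lambda and interleukin-10, was at 18.01 and 15.2 FPKM in miRs and 16.8 and 16.8 FPKM in control. IFNLR1, the chain specific to interferon lambda, did not exceed 0.0349 FPKM in any library.

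Of the receptor's kinases, JAK1 showed the most even difference. JAK1, which also serves the receptors of interferon gamma and of interleukin-6, was at 30.6 and 31.2 FPKM in miRs, against 47.3 and 45.5 FPKM in control. The miRs libraries lay close together and both below both controls. Its means were 30.9 ± 0.396 FPKM in miRs and 46.4 ± 1.28 FPKM in control (SD, n = 2 each), a log2 difference of -0.57 ± 0.12 (SE; limma adjusted p = 0.0954). Of all tested genes, 10.3% had a more negative log2 difference. TYK2, the kinase partner of IFNAR1, was at 14.5 and 16.9 FPKM in miRs, against 18.003 and 19.8 FPKM in control. Its miRs libraries also lay below both controls, by a log2 difference of -0.26 with a 95% interval of -0.64 to 0.12 (limma adjusted p = 0.337). JAK2, which serves the interferon gamma receptor and is not bound to IFNAR, was at 5.10 and 2.74 FPKM in miRs, against 2.76 and 2.44 FPKM in control. Only miRs replicate 1 stood above the controls, and miRs replicate 2 lay between them. The log2 difference was 0.41, with a 95% interval of -0.32 to 1.14 (limma adjusted p = 0.414), and 0.05 without miRs replicate 1 and 0.76 without miRs replicate 2. JAK1 was expressed at 2.11 and 1.85 times the FPKM of TYK2 in miRs and 2.63 and 2.29 times in control.

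**Figure D2:**
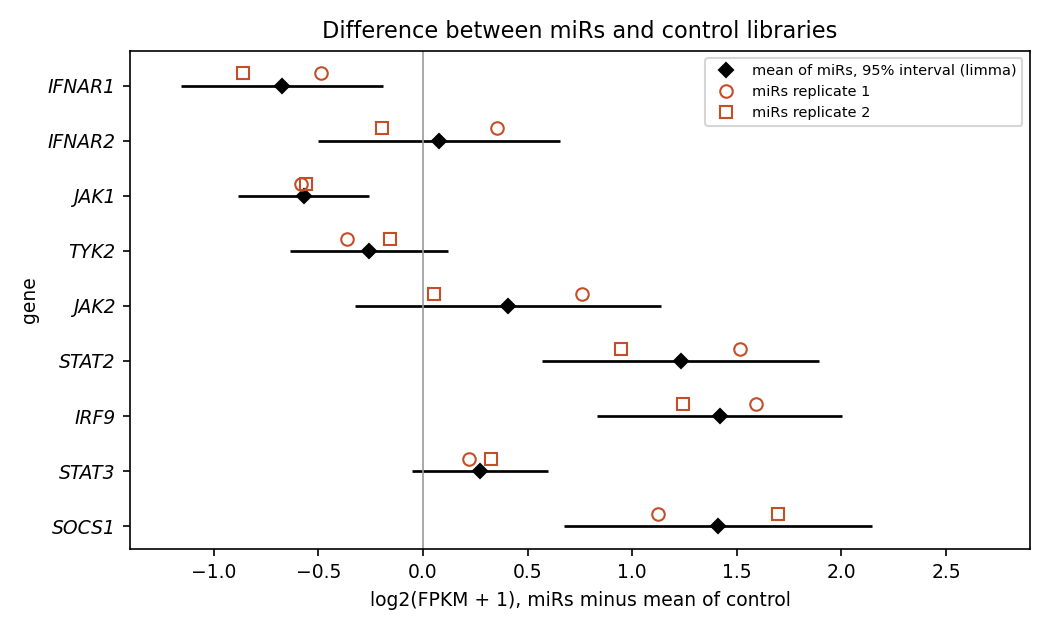
Difference in log2(FPKM + 1) between miRs and control for the 9 genes, with diamonds for the mean of 2 miRs libraries, bars for the 95% interval from limma and open symbols for each miRs library against the mean of the controls. The intervals of STAT2, IRF9 and SOCS1 lie above 0 and those of IFNAR1 and JAK1 below 0 before adjustment for the number of genes, and the miRs libraries of IFNAR2 fall on either side of 0.

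Both subunits of ISGF3 among the 9 genes were higher in miRs. IRF9, its DNA-binding subunit, was at 58.6 and 45.8 FPKM in miRs, against 15.9 and 22.1 FPKM in control. Both miRs libraries were at more than 2-fold the higher control. The means were 52.2 ± 9.07 FPKM in miRs and 19.0 ± 4.37 FPKM in control (SD, n = 2 each), and the log2 difference was 1.42 ± 0.22 (SE), the smallest adjusted p of the 9 genes (0.0769 in limma). STAT2, the subunit that supplies the activation domain, was at 74.6 and 49.8 FPKM in miRs, against 22.4 and 28.8 FPKM in control. The groups did not overlap, with means of 62.2 ± 17.5 FPKM in miRs and 25.6 ± 4.55 FPKM in control (SD, n = 2 each) and a log2 difference of 1.23 ± 0.25 (SE; limma adjusted p = 0.0940). Of all tested genes, 1.96% had a larger log2 difference than IRF9 and 2.53% a larger one than STAT2. The ratio of IRF9 to STAT2 in the same library was 0.786 and 0.919 in miRs and 0.711 and 0.766 in control, higher in both miRs libraries but varying less over the libraries than either level. Both were also higher in control replicate 2 than in control replicate 1, by 1.39 times for IRF9 and 1.29 times for STAT2.

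STAT3, the factor of interleukin-6 and related cytokines and not a subunit of ISGF3, was at 38.03 and 40.97 FPKM in miRs, against 32.8 and 32.3 FPKM in control. Both miRs libraries lay above both controls, by 1.21-fold in the mean. The log2 difference was 0.27 with a 95% interval of -0.05 to 0.60 (limma adjusted p = 0.262). The estimates of IRF9 and STAT2 were larger, at 1.42 and 1.23. The STAT3 interval overlapped the 95% interval of STAT2, 0.57 to 1.89, and ended below that of IRF9, which began at 0.83. Whether the differences of these genes differ from each other was not tested. The ratio of STAT2 to STAT3 was 1.96 and 1.22 in miRs and 0.684 and 0.892 in control, so that STAT2 exceeded STAT3 in both miRs libraries and lay below it in both controls.

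Of the other STAT genes, STAT6, the factor of interleukin-4, was at 59.8 and 47.3 FPKM in miRs and 44.3 and 46.4 FPKM in control. STAT5A was at 1.41 and 1.06 FPKM in miRs and 1.51 and 2.06 FPKM in control, and STAT5B at 7.17 and 8.11 FPKM in miRs and 7.81 and 8.68 FPKM in control. In limma 0 of these 3 passed, and 0 had an unadjusted p under 0.05. JAK3 and STAT4, genes of blood cells, stayed under 1 FPKM in every library and were not tested.

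**Figure D3:**
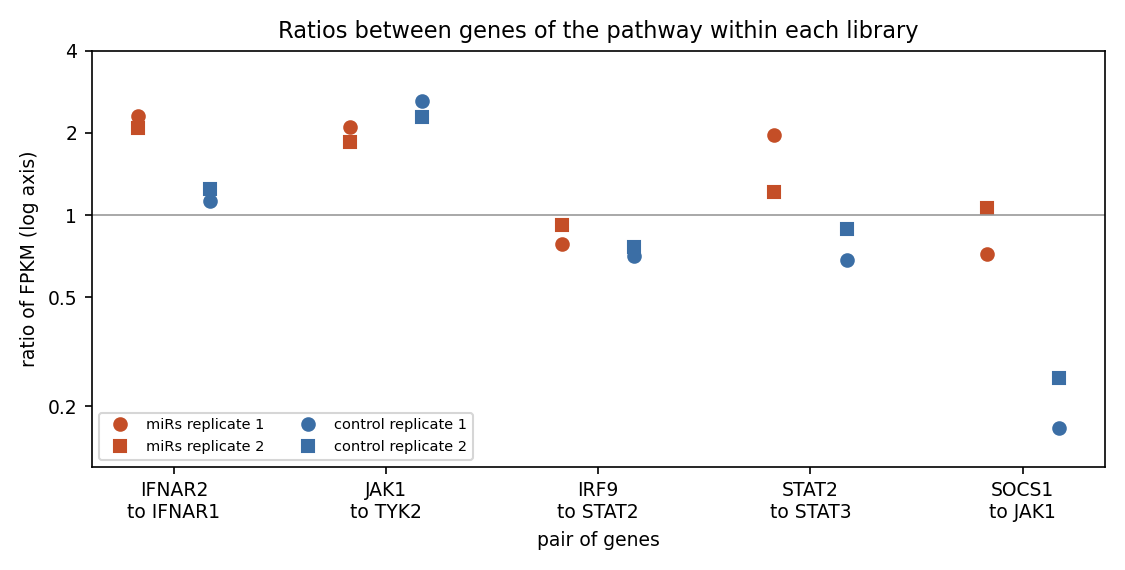
Ratio of the FPKM of 2 genes within each library on a log axis, miRs left of control, circles for replicate 1 and squares for replicate 2. All the ratios shown separate the groups, by the least for IRF9 to STAT2, which stays between 0.711 and 0.919. The pairs were chosen after values were seen, and each holds a gene whose own groups do not overlap. The separation is therefore no independent result, and 59.5% of single tested genes have groups that do not overlap. The ratio of JAK1 to TYK2 is lower in miRs and the others are higher.

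SOCS1, the inhibitor of the kinases, was at 21.99 and 33.2 FPKM in miRs, against 7.86 and 11.6 FPKM in control. Both miRs libraries lay above both controls, with means of 27.6 ± 7.90 FPKM in miRs and 9.71 ± 2.63 FPKM in control (SD, n = 2 each). The log2 difference was 1.41 ± 0.28 (SE; limma adjusted p = 0.0925), and 1.98% of all tested genes had a larger one. With JAK1 lower, the ratio of SOCS1 to JAK1 was 0.718 and 1.06 in miRs, against 0.166 and 0.255 in control. SOCS1 was 1.51 times higher in miRs replicate 2 than in miRs replicate 1, while STAT2 and IRF9 were 1.497 and 1.28 times higher in miRs replicate 1. All 3 were higher in control replicate 2 than in control replicate 1, SOCS1 by 1.47 times. Whether these orders differ beyond the spread within a condition cannot be tested with 1 library each.

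Related inhibitors gave no common direction. Of 16 listed, 15 were tested and 0 passed in limma, with 3 higher and 3 lower at an unadjusted p under 0.05 (11.2% and 13.0% of all tested genes) and a median log2 difference of -0.07. USP18, which binds IFNAR2 and displaces JAK1, was at 106 and 24.7 FPKM in miRs and 5.82 and 6.45 FPKM in control (limma adjusted p = 0.111), the largest difference of the 15. PTPN2, a phosphatase that acts on JAK1, was at 14.7 and 14.2 FPKM in miRs and 7.23 and 8.67 FPKM in control (limma adjusted p = 0.0863). SOCS5 was lower, at 11.97 and 13.8 FPKM in miRs and 21.2 and 20.5 FPKM in control (limma adjusted p = 0.0950), and so was PIAS3, an inhibitor of STAT3, at 17.5 and 22.04 FPKM in miRs and 28.9 and 31.8 FPKM in control (limma adjusted p = 0.135). SOCS3, the feedback inhibitor of interleukin-6 signalling, chosen with its values in view, was at 17.1 and 25.2 FPKM in miRs and 19.95 and 20.3 FPKM in control. The ratio of SOCS1 to SOCS3 was therefore above 1 in miRs, at 1.29 and 1.31, and below 1 in control, at 0.394 and 0.569.

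The promoters of STAT2, IRF9 and SOCS1 are shown because these 3 genes stood highest over control. They run from 250 bases before to 50 bases after the gene start in RefSeq (GRCh38.p14), 5′ to 3′ on the gene's strand, and capitals mark the searched motifs. The deposited values refer to another build, hg19. The promoter of STAT2 lies at chr12:56360058-56360357 on the minus strand, that of IRF9 at chr14:24161015-24161314 on the plus strand and that of SOCS1 at chr16:11256155-11256454 on the minus strand.
STAT2: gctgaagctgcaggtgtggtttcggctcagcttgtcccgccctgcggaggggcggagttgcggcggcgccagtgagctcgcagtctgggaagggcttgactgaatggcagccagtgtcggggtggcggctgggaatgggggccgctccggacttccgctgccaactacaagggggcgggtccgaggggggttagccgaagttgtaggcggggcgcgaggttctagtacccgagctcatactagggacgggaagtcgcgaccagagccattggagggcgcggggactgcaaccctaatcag
IRF9: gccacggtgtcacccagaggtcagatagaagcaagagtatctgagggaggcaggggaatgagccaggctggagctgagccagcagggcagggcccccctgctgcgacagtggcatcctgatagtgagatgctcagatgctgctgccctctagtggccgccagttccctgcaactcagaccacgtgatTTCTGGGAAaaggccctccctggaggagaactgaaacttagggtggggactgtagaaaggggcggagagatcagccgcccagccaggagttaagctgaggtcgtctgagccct
SOCS1: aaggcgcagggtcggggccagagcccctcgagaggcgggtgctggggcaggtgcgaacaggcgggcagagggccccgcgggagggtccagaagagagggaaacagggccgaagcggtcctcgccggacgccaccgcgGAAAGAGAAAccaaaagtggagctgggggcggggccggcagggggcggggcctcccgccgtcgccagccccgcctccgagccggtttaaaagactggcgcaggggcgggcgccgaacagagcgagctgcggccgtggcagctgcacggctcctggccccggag

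Searched on both strands were the ISRE core, GAAA and again GAAA with 2 bases of any kind between them, which ISGF3 and other interferon regulatory factors bind, and the core TTCNNNGAA of the gamma-activated site (GAS), which STAT dimers bind. The 2 motifs did not overlap in these promoters. In SOCS1 the ISRE core GAAAGAGAAA began 113 bases before the gene start. In IRF9 the GAS core TTCTGGGAA began 63 bases before it. The window of STAT2 held neither. Of the 9 genes, 8 were in the promoter table, with 14 promoters, of which 1 held the ISRE core (3.57% of all 35116 promoters) and 1 the GAS core (7.66% of all). The promoters of IFNAR1, JAK1, JAK2, TYK2 and STAT3 held neither in these windows. Among 17 of the 20 interferon-stimulated targets found in the table, 13 had a promoter with the ISRE core, 17 of their 26 promoters. These matches describe letters and show no binding.

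The differences were larger in the targets of the pathway than in its components. All 20 listed interferon-stimulated targets were tested, and in all 20 both miRs libraries lay above both controls (29.5% of all tested genes), with a median log2 difference of 5.41. The list was chosen with earlier results of these data known, so these counts only describe it. Targets with a control mean under 1 FPKM reached the minimum for testing only through their miRs values. In limma 0 passed, where 0.101% of all tested genes were called higher. All 20 were higher at an unadjusted p under 0.05, where 11.2% of all tested genes were. The log2 differences ran from 3.22 to 7.52, so the lowest was above the 1.42 of IRF9. IFIT1, which binds foreign RNA, was at 555 and 103 FPKM in miRs and 1.55 and 1.84 FPKM in control (limma adjusted p = 0.0651), and MX1, a GTPase that blocks viruses, had the smallest adjusted p of the list (0.0602). All 20 were higher in miRs replicate 1 than in miRs replicate 2, by 3.26 to 35.3 times. The gap between the miRs libraries was 0.57 for STAT2, 0.35 for IRF9 and -0.57 for SOCS1 on the log2(FPKM + 1) scale, against a median of 2.34 for the targets.

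**Figure D4:**
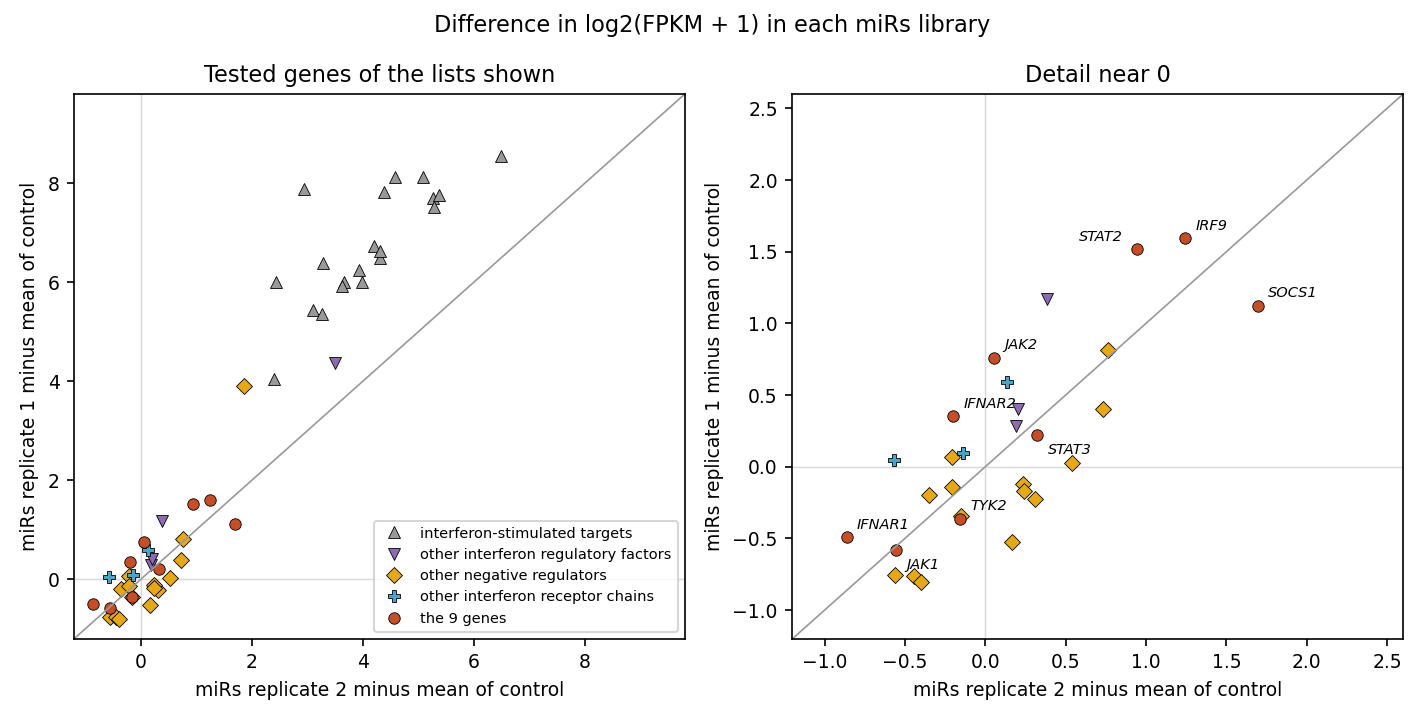
Difference in log2(FPKM + 1) from the mean of the controls in miRs replicate 1 (vertical) and miRs replicate 2 (horizontal) for tested genes, with a line of equality, the whole range at left and the range near 0 at right with the 9 genes named. The 20 interferon-stimulated targets lie above the line and far from 0, STAT2 and IRF9 lie just above it, and SOCS1 lies below it.

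Interferon genes reached at most 9.95 FPKM in any library. Of 16 listed symbols 13 were in the files, and 6 of them were listed at 0 in all 4 libraries. IFNB1, interferon beta, was at 9.95 and 0.660 FPKM in miRs and listed at 0 in both controls (limma adjusted p = 0.253). IFNL1, a type III interferon, had 9.48 FPKM in miRs replicate 1 and a listed 0 in miRs replicate 2 and both controls. IFNB1 and IFNL1 reached the minimum for testing only through their miRs values. Both had their higher level in miRs replicate 1, the library with the higher targets. IRF7, the factor that amplifies interferon genes, was at 59.4 and 31.9 FPKM in miRs and 1.25 and 2.75 FPKM in control (limma adjusted p = 0.0632). IRF1 was at 17.6 and 9.78 FPKM in miRs and 7.42 and 7.08 FPKM in control, and IRF3, the factor that RNA sensors activate, at 36.6 and 31.8 FPKM in miRs and 26.0 and 28.9 FPKM in control. IRF2 was at 11.0 and 10.3 FPKM in miRs and 7.88 and 9.93 FPKM in control. In limma 0 of the 4 tested of 8 other interferon regulatory factors passed, and 2, IRF7 and IRF1, had an unadjusted p under 0.05, both higher.

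The interleukin-6 side of JAK-STAT signalling showed no common direction. Of 8 receptors that use or relate to gp130, 7 were tested, 0 passed in limma and 1 had an unadjusted p under 0.05, with a median log2 difference of -0.04. That 1 was IL11RA, the interleukin-11 receptor, at 4.71 and 7.32 FPKM in miRs and 10.5 and 10.9 FPKM in control (limma adjusted p = 0.140). IL6R was at 3.05 and 9.501 FPKM in miRs and 2.16 and 2.54 FPKM in control, OSMR at 40.9 and 35.1 FPKM in miRs and 45.5 and 38.6 FPKM in control, and IL27RA at 2.61 and 2.47 FPKM in miRs and 2.21 and 2.25 FPKM in control. Of 10 known STAT3 targets, all tested, 0 passed and 1, JUNB, had an unadjusted p under 0.05, with a median of -0.05. JUNB was at 17.2 and 15.7 FPKM in miRs and 23.4 and 23.2 FPKM in control, MCL1 at 132 and 80.0 FPKM in miRs and 67.7 and 64.2 FPKM in control, BCL6 at 5.61 and 6.65 FPKM in miRs and 8.30 and 7.22 FPKM in control, and PIM1 at 2.56 and 9.71 FPKM in miRs and 8.48 and 11.4 FPKM in control. OSMR, IL6ST and SOCS3 are each on 2 of these lists.

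By level, the order of the 9 genes differed between the groups. In miRs STAT2 was the highest by mean, followed by IRF9, STAT3, JAK1, SOCS1, TYK2, IFNAR2, IFNAR1 and JAK2. The ranges over the 2 miRs libraries overlapped for STAT2 and IRF9, for JAK1 and SOCS1 and for IFNAR1 and JAK2, so these neighbours were not set apart. In control JAK1 was the highest, followed by STAT3, STAT2, IRF9, TYK2, SOCS1, IFNAR2, IFNAR1 and JAK2. There the ranges overlapped for IRF9 and TYK2 and for SOCS1 and IFNAR2.

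Likeness of profile was measured as Euclidean distance over the 4 libraries between log2(FPKM + 1) values minus the mean of the controls, and the 5 nearest tested genes are named. For IRF9 they were CLDN7, APLN, CLDN23, AP1G2 and DSP, at distances of 0.144 to 0.268. For STAT2 they were MAPK13, IL18BP, CLDN23, ADAR and ADGRL4, at 0.0639 to 0.170, and CLDN23 was shared with IRF9. For SOCS1 they were NFIL3, COLEC12, ELN, PLSCR4 and BBC3, at 0.250 to 0.348. IFNAR1 had nearer neighbours, PHC3, AP1M1, MARCH5, E2F1 and ARPC5, at 0.0353 to 0.0562. A profile of 4 values is matched by many genes near 0, so the distance is a description.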

How the data were processed

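Messenger RNA of 2 miRs and 2 control libraries of MRC5 cells was analysed. The treatment label set the groups, and titles gave the replicate numbers. Per the labels' protocols, libraries of RNeasy-purified RNA were made with a stranded kit for polyadenylated RNA. Cuffdiff 2.2.1, TopHat2 2.1.1, SAMtools 0.1.18, Bowtie2 2.2.8 and hg19 are named in the submitters' processing notes. In the sources used here annotation, strand setting and scaling are not given, and neither labels nor files name a batch. The values deposited by the authors are FPKM per gene symbol, per the file headers.

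The 4 tables were joined on symbol. The limma test (version 3.58.1, R 4.3.3) was run on log2(FPKM + 1) of genes whose mean reached 1 FPKM, with a variance trend, 2-sided, with Benjamini-Hochberg adjustment over all 11860 tested genes at 0.05. The test was checked on simulated data. Steps between values under 0.3 FPKM gave the relative worth of a fragment (58.5% to 63.3% of low genes within 1% of simple ratios). Whole reads were not recovered, so depth is unknown and no count test was run. The 9 genes are named in full. Some genes of the JAK and STAT list and of the likeness lists are not reported here. Of each other list (interferon receptor chains, inhibitors, gp130 receptors, interferon regulatory factors, interferon-stimulated targets, STAT3 targets and interferon genes) counts are given and up to 4 genes with the smallest p. Markers of fibroblasts, blood, epithelial and endothelial cells are given mainly as summed levels. The genes and lists were chosen with earlier results of these data known, and ratios after values were seen. Promoters were searched in Python 3.11.15 with pandas 2.3.3. Alternatives were another pseudocount (0.1), another minimum (none or 5 FPKM), rescaling, quantile normalization, no variance trend, a replicate block and each library left out.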

Additional observations from a re-analysis of the deposited data

How the results depend on the processing

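The directions of the 9 log2 differences were kept in the fits tried, except for IFNAR2, which ran from -0.20 without miRs replicate 1 to 0.35 without miRs replicate 2. With all 4 libraries and no block, 0 of the 9 genes were called at a pseudocount of 0.1, with no minimum, at a minimum of 5 FPKM (which JAK2 did not reach), after rescaling, after quantile normalization and without the variance trend. With the replicate number as a block, 1 was called, SOCS1 (adjusted p = 0.0488, where the range over its alternatives was 0.0285 to 0.638). In that block fit 99 genes were called in all, 41 of them higher. The numbers are shared by name only: the same-numbered deviations from the group means correlated at 0.20 across genes. All calls numbered 29, 12 of them higher, and 0 and 0 with no minimum FPKM (3338 genes at an unadjusted p under 0.05) and 6 and 2 after quantile normalization. The cause was not tested. In the fits that left out 1 library, a group of 1 overlaps the other group less easily than a group of 2. The share of all tested genes with groups that did not overlap was not computed there, so those counts say little about the 9 genes. Leaving out 1 library gave 0 to 3746 calls, 0 to 1816 of them higher, 0 to 5 of the 9 genes called, and 7 to 9 of the 9 with groups that did not overlap. The low ends came without a control, 0 calls without control replicate 1 and 1 without control replicate 2, and the high ends without a miRs library, 1653 without miRs replicate 1 and 3746 without miRs replicate 2, where the spread is estimated from the controls alone. Calls in the other lists are not given for the fits that left out 1 library, because 1 group then holds a single library. No scaling moved the median of all genes by over 0.1 on the log2 scale. The unknown number of reads limits what can be said of IFNAR1 and JAK2, the lowest of the 9.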
